A study of Mus musculus with 20 samples.

Results

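Expression of 36 listed genes of the cell division cycle was examined in left ventricular tissue of mice, which the labels name cardiac ventricle. The genes were chosen by name, with earlier results of these data known. Every array probe annotated with 1 of these symbols was taken as a member. The list was matched by 72 of 45281 probes, which named 34 of the 36 genes, whereas *Ccnb1* and *Mki67* were named by no probe in the annotation used and were not analysed here. A single probe represented 15 genes, and 2 to 4 probes each represented the other 19, so that probes of 1 gene are repeated readings of that gene and not independent members. The array named 19057 genes in all.

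Male mice of 4 groups were compared. Double-knockout mice (DKO) carried floxed alleles of the DNA methyltransferase genes *Dnmt3a* and *Dnmt3b*, homozygous for both, together with a Cre recombinase driven by the atrial myosin light chain promoter (MLC2aCre), which deletes in cardiomyocytes from heart development onwards and in atria as well as ventricles. Control mice (CTL) were described as having the floxed alleles without Cre, so that an effect of Cre itself cannot be told apart from that of the deletion. Mice underwent transverse aortic constriction (TAC), a suture around the aortic arch that puts the left ventricle under pressure overload, or a sham operation, at 10 to 12 weeks of age, and tissue was taken 4 weeks later at 14 to 16 weeks. The groups were TAC DKO (n = 6), TAC CTL (n = 6), sham DKO (n = 4) and sham CTL (n = 4), with 1 array per mouse. Values are linear fluorescence intensities on Illumina bead arrays of total RNA from this tissue, in arbitrary units, which compare groups for a given probe but not different probes.

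Division of a cell is driven by cyclin-dependent kinases, which are switched on by cyclins and held back by inhibitors. D-type cyclins with CDK4 or CDK6 phosphorylate the retinoblastoma protein, which releases E2F transcription factors, and E2F targets such as the MCM helicase subunits and PCNA then serve DNA replication. Cyclins A and B with CDK1, the Aurora and Polo-like kinases and the spindle checkpoint carry the cell through mitosis. Adult mouse cardiomyocytes have largely left this cycle and respond to pressure overload mainly by growing in size, whereas fibroblasts, endothelial cells and leukocytes of the heart can divide. In RNA of whole tissue, a change in the number of cells of a type cannot be told apart from a change of RNA per cell.

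Promoter sequences were taken from RefSeq (GRCm38.p6) as windows of 300 bases, with 250 bases before and 50 bases after each annotated start. A window was found for 30 of the 36 genes, with 35 windows in all, and none for *Ccna2*, *Ccnd1*, *Ccnd2*, *Ccne2*, *Mcm4* and *Aurkb*. Letters of 3 motifs known from cell cycle promoters were searched on both strands. These were E2F (TTCGCGC, or with other inner letters TTGGCGC, or else TTCCCGC), the cell cycle homology region, CHR (TTTGAA, or else TTCGAA), and CCAAT, and matches of a motif to opposite strands may overlap. E2F letters stood in 31.4% of the members' windows and in 8.07% of all 32841 windows. CHR letters stood in 34.3% and 19.2%, and CCAAT in 68.6% and 37.4%. The E2F letters hold CG, of which the members' windows had a median of 24, against 7 in all windows. The part of base composition in these shares was not tested. By gene, E2F letters were found in 10 of 30 members, against 9.2% of all genes with a window. These members were *Cdk1*, *Cdk2*, *Ccnb1*, *Cdkn2a*, *Cdkn2c*, *Mki67* and 4 of the 5 MCM genes with a window, *Mcm3*, *Mcm5*, *Mcm6* and *Mcm7*. The single windows of *Cdk6*, *E2f1*, *Aurka* and *Cdkn2d*, none with E2F letters, had their start 2889, 466, 316 and 212 bases inside the gene's outermost annotated end, so that sequence before that end was not searched in full. CHR letters were found in 12 of 30 members, against 21.7% of all genes with a window. These members were *Cdk1*, *Ccnb2*, *Aurka*, *Plk1*, *Bub1*, *Bub1b*, *Cdc20*, *Mki67*, *Top2a*, *Cdkn2b*, *Mcm2* and *Mcm7*. The following 6 windows are shown because they belong to MCM genes with a probe that passed after TAC in both genotypes (*Mcm5*, *Mcm7* and, on 1 of its 4 probes, *Mcm6*), to the only member called between genotypes (*Cdkn2c*), and to mitotic genes whose values did not pass the test (*Cdk1*, *Top2a*). Each is written 5′ to 3′ on the strand of the gene, and capitals mark matches to any of the 3 motifs on either strand.
Mcm5 promoter, chr8:75109259-75109558, plus strand: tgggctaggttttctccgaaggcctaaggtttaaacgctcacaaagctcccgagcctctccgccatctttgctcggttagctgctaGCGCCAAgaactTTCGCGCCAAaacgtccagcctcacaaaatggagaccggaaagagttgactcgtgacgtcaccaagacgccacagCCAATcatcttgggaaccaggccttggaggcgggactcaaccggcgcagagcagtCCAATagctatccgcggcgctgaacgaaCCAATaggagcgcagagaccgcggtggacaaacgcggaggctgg
Mcm6 promoter, chr1:128359656-128359955, minus strand: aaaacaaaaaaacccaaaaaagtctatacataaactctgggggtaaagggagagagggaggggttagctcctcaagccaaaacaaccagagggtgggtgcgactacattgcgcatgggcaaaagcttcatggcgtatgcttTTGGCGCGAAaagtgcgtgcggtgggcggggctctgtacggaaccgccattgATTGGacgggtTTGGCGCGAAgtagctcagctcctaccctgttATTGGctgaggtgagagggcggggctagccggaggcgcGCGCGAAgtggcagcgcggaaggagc
Mcm7 promoter, chr5:138171834-138172133, minus strand: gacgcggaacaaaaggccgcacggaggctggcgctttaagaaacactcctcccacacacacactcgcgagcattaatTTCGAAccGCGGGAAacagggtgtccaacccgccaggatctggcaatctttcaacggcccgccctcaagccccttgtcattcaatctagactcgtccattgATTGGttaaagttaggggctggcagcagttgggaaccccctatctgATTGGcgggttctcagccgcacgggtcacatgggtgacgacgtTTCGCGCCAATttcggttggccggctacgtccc
Cdkn2c promoter, chr4:109666707-109667006, minus strand: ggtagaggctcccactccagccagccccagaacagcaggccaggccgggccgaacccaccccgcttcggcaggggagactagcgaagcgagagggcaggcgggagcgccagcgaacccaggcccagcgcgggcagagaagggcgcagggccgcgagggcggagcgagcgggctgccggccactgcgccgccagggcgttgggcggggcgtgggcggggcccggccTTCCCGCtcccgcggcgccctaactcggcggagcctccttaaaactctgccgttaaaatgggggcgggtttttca
Cdk1 promoter, chr10:69352863-69353162, minus strand: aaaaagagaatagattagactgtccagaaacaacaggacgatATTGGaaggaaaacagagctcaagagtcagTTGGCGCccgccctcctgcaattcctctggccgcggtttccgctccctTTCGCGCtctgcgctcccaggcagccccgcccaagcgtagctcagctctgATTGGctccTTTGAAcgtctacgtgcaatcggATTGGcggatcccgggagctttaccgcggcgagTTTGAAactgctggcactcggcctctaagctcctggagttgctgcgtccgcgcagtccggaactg
Top2a promoter, chr11:99024140-99024439, minus strand: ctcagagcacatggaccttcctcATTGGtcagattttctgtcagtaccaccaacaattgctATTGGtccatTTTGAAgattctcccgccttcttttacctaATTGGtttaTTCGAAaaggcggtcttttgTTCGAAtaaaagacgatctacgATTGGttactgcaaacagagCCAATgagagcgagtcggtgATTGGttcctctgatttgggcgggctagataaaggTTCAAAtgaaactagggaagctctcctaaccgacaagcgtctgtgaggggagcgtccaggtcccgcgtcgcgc
The *Mcm5* window held 3 E2F matches, which began 164, 152 and 149 bases before the start with the last pair overlapping, and 3 CCAAT matches. The *Mcm6* window held 5 E2F matches, of which overlapping pairs began 109 and 106, and 46 and 43, bases before the start and 1 lay after it. *Mcm7* had 2 windows, and the first, shown here, held 3 E2F matches, 1 of them beginning 165 bases before the start, and 3 CCAAT matches. *Cdkn2c* likewise had 2 windows, and the outer one, shown here, held 1 E2F match, 25 bases before the start, no CCAAT and 33 CG dinucleotides, against a median of 24 in the members' windows and of 7 in all windows. The inner *Cdkn2c* window, whose start lay 1384 bases inside the gene, had no E2F letters, 1 CCAAT match and 8 CG dinucleotides. The *Top2a* window had no E2F letters but 4 CHR and 6 CCAAT matches, and that of *Cdk1* had all 3 kinds. A match describes these letters only and is no evidence of binding.

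The groups were compared on log2 intensities by limma across all 45281 probes, with Benjamini-Hochberg adjustment over all of them. A probe is said to pass, or to rise or fall, at an adjusted p under 0.05, and is called when its fold change is also over 1.5. The sham and the TAC arrays had been quantile normalized by the authors as separate sets, with medians of about 47.5 and 58.6, and were brought together here by a further quantile normalization over the 20 arrays. The normalization set and the operation cannot be told apart in any comparison of TAC with sham, whereas DKO and CTL were compared within a set. Samples of a group correlated at 0.980 to 0.994. Of 14 cardiomyocyte markers listed, 13 were measured, and each of the 13 lay above the median probe. The targeted genes gave no check of the genotype, because the position of their probes relative to the deleted exons was not known. The *Dnmt3b* probe with the higher signal had 110 ± 11.7 and 105 ± 7.36 in TAC DKO and TAC CTL hearts and 101 ± 6.82 and 112 ± 4.25 in sham DKO and sham CTL hearts (mean ± SD), and the 3 *Dnmt3a* probes ranked in the lowest 26.7% of probes.

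Of the 72 member probes, 51 lay above the median probe, whose mean intensity was 53.04, and 21 did not. Taking for each gene its probe with the highest mean, which is used below as the gene's probe unless another is named, 29 of 34 genes (85.3%) lay above the median probe, against 64.5% of all genes. The 5 genes at or below it were *Cdk6*, the cyclin genes *Ccne1*, *Ccna2* and *Ccnb2*, and the spindle checkpoint kinase gene *Bub1*. Nearest to the median probe on either side were *Cdk6*, above 44.6% of all probes, and *Pcna*, above 56.5%. Probes at this end of the scale are near the floor of the array, where a change is hard to measure.

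**Figure D1:**
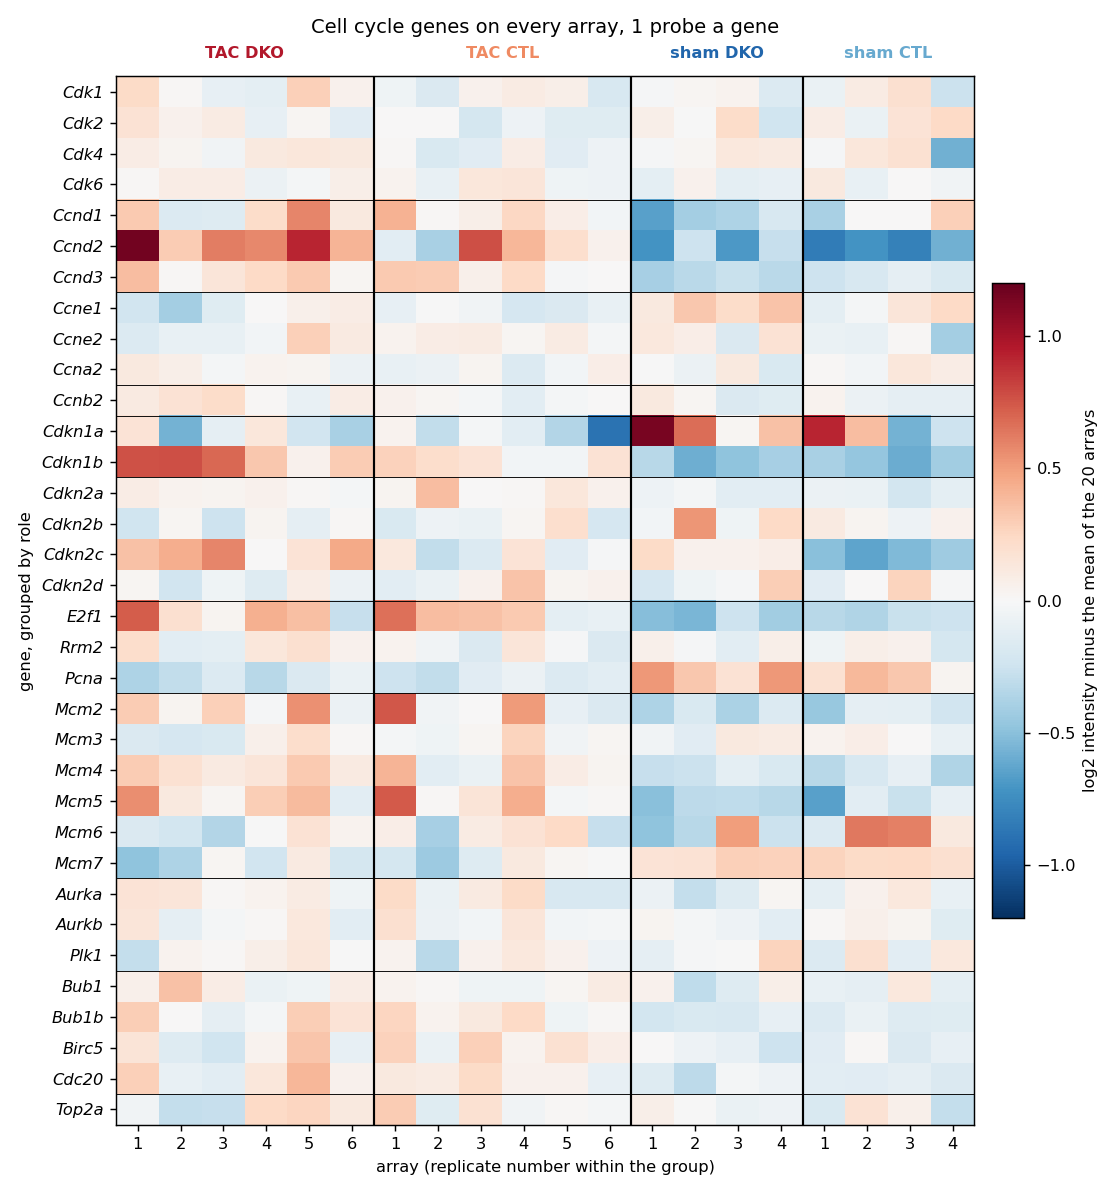
Level of each gene's probe on each of the 20 arrays, as log2 intensity minus the mean of the 20 arrays (colour), with genes in rows grouped by role and arrays in columns by group and replicate number. Red is above and blue below the gene's own mean: *Ccnd2*, *Cdkn1b* and *E2f1* are mostly red on TAC arrays, *Pcna* and *Mcm7* are blue or pale there, and most mitotic genes are pale throughout.

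After TAC, the cell cycle genes called were D-type cyclin, inhibitor and S-phase genes. In DKO hearts 5 of the 72 probes were called higher and 3 lower, where the shares over all probes were 2.46% and 4.27%. In CTL hearts 3 were called higher and 0 lower, against 1.76% and 3.4% of all probes. By gene, 3 of 34 were called higher and 2 lower in DKO hearts, against 3.99% and 5.17% of all genes. In CTL hearts 2 genes were called higher and 0 lower, against 2.74% and 4.2% of all genes. The arrays of the operations did not overlap for 14 member probes higher and 6 lower after TAC in DKO hearts (11.1% and 9.38% of all probes), and for 10 higher and 4 lower in CTL hearts (8.37% and 7.78%). By the adjusted p alone, 16 rose and 9 fell in DKO hearts (15.4% and 12.7% of all probes), and 11 rose and 6 fell in CTL hearts (11.7% and 10.2%). The median log2 fold change of the 72 probes was 0.06 in DKO hearts and 0.04 in CTL hearts, where that of all probes was 0.02 and 0.01. Among the 51 probes above the median probe, 16 rose in DKO hearts and 11 in CTL hearts, and 25.9% and 21.2% of all such probes did so. With each array centred on its own median in place of the quantile normalization, the calls split into 2 up and 5 down in DKO hearts and 0 up and 4 down in CTL hearts, so that the balance of directions depended on the scaling.

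D-type cyclins, which activate CDK4 and CDK6 at entry into the cycle, were measured by 10 probes, of which 6 rose and 1 fell after TAC in DKO hearts, and 3 rose and 1 fell in CTL hearts. Of the 5 probes with the alternatives run, 1 (ILMN_2700166 of *Ccnd2*, in DKO hearts) passed also with arrays centred on their medians. *Ccnd2* (probe ILMN_2700166) had a lowest, median and highest intensity of 1565, 1914 and 2828 in TAC DKO hearts, against 768, 1063, 785 and 1042 in the 4 sham DKO hearts. In TAC CTL hearts the lowest, median and highest were 965, 1385 and 2157, against 706, 768, 720 and 848 in sham CTL hearts. The groups did not overlap in either genotype. The log2 fold change of TAC over sham was 1.15 ± 0.17 (SE, adjusted p = 2.2e-05) in DKO hearts and 0.89 ± 0.17 (adjusted p = 0.00054) in CTL hearts. With arrays centred on their medians, this probe had 0.67 (adjusted p = 0.0047) in DKO hearts and 0.41 (adjusted p = 0.092) in CTL hearts, where it no longer passed. Another *Ccnd2* probe, ILMN_2700168, was called in both genotypes, with 0.76 ± 0.21 in DKO hearts and 0.71 ± 0.21 in CTL hearts, and with arrays centred on their medians it had 0.28 (adjusted p = 0.34) and 0.24 (adjusted p = 0.45). Of its other 2 probes, both far dimmer, ILMN_1225932 fell by 0.21 (adjusted p = 0.016) in DKO hearts and by 0.31 (adjusted p = 0.00094) in CTL hearts, and ILMN_1235724 did not pass, so that the probes of this gene disagreed in direction.

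*Ccnd1*, the cyclin D1 gene, was measured by 3 probes. Its brightest, ILMN_1221503, had a lowest, median and highest intensity of 1508, 1902 and 2536 in TAC DKO hearts, against 1073, 1274, 1311 and 1477 in sham DKO hearts. In TAC CTL hearts these were 1656, 1776 and 2261, against 1291, 1693, 1700 and 2061 in sham CTL hearts. The DKO groups did not overlap, whereas the CTL groups did. The log2 fold change was 0.56 ± 0.14 (adjusted p = 0.0029) in DKO hearts, which rose, and 0.16 ± 0.14 (adjusted p = 0.46) in CTL hearts. ILMN_2669793 had 145, 193 and 235 (lowest, median and highest) in TAC DKO hearts, against 103, 108, 109 and 130 in sham DKO hearts, without overlap. It had 129, 149 and 186 in TAC CTL hearts, against 119, 137, 122 and 226 in sham CTL hearts, with overlap. This probe was called in DKO hearts (0.77 ± 0.15, adjusted p = 0.00037) and had 0.04 ± 0.15 in CTL hearts, where sham CTL replicate 4 stood at 226 and the other 3 sham CTL hearts between 119 and 137. The interaction of genotype and operation for this probe was 0.73 ± 0.21, with an unadjusted p of 0.0021 and an adjusted p of 0.94 (limma), so that a difference between the genotypes was not established. *Ccnd3*, the cyclin D3 gene, had 732, 825 and 933 (lowest, median and highest) in TAC DKO hearts, against 550, 579, 602 and 577 in sham DKO hearts. It had 716, 803 and 901 in TAC CTL hearts, against 609, 633, 672 and 638 in sham CTL hearts. The groups did not overlap in either genotype on this probe, ILMN_3131063, the brightest of the gene. It rose by 0.51 ± 0.08 (adjusted p = 2.6e-05) in DKO hearts and by 0.33 ± 0.08 (adjusted p = 0.0030) in CTL hearts, both under the fold of 1.5. The other *Ccnd3* probes did not pass in either genotype. Neither *Ccnd1* in DKO hearts (0.09, adjusted p = 0.65 on ILMN_1221503, and 0.39, adjusted p = 0.055 on ILMN_2669793) nor *Ccnd3* (0.02, adjusted p = 0.85 in DKO hearts, and -0.16, adjusted p = 0.15 in CTL hearts) passed with arrays centred on their medians, and the sign of *Ccnd3* in CTL hearts turned.

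The kinases themselves moved little in intensity. Of the 10 probes of *Cdk1*, *Cdk2*, *Cdk4* and *Cdk6*, 2 *Cdk2* probes passed in DKO hearts in opposite directions, ILMN_2770759 by 0.27 and ILMN_2717613 by -0.25, while the brightest *Cdk2* probe had 0.01 ± 0.08. None of the 10 passed in CTL hearts. *Cdk4*, the partner of D-type cyclins, had a log2 fold change of 0.01 ± 0.10 in DKO hearts and of 0.00 ± 0.10 in CTL hearts. *Cdk1*, the mitotic kinase, had a lowest, median and highest intensity of 56.0, 62.2 and 74.3 in TAC DKO hearts, against 60.2, 62.0, 62.6 and 54.3 in sham DKO hearts. In TAC CTL hearts it had 53.2, 60.9 and 65.1, against 57.4, 65.0, 69.3 and 50.8 in sham CTL hearts. All 4 groups overlapped. The 95% confidence interval of the log2 fold change was -0.10 to 0.28 in DKO hearts and -0.21 to 0.17 in CTL hearts. The intensities of *Cdk1* lay close to that of the median probe, where a change is hard to measure.

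**Figure D2:**
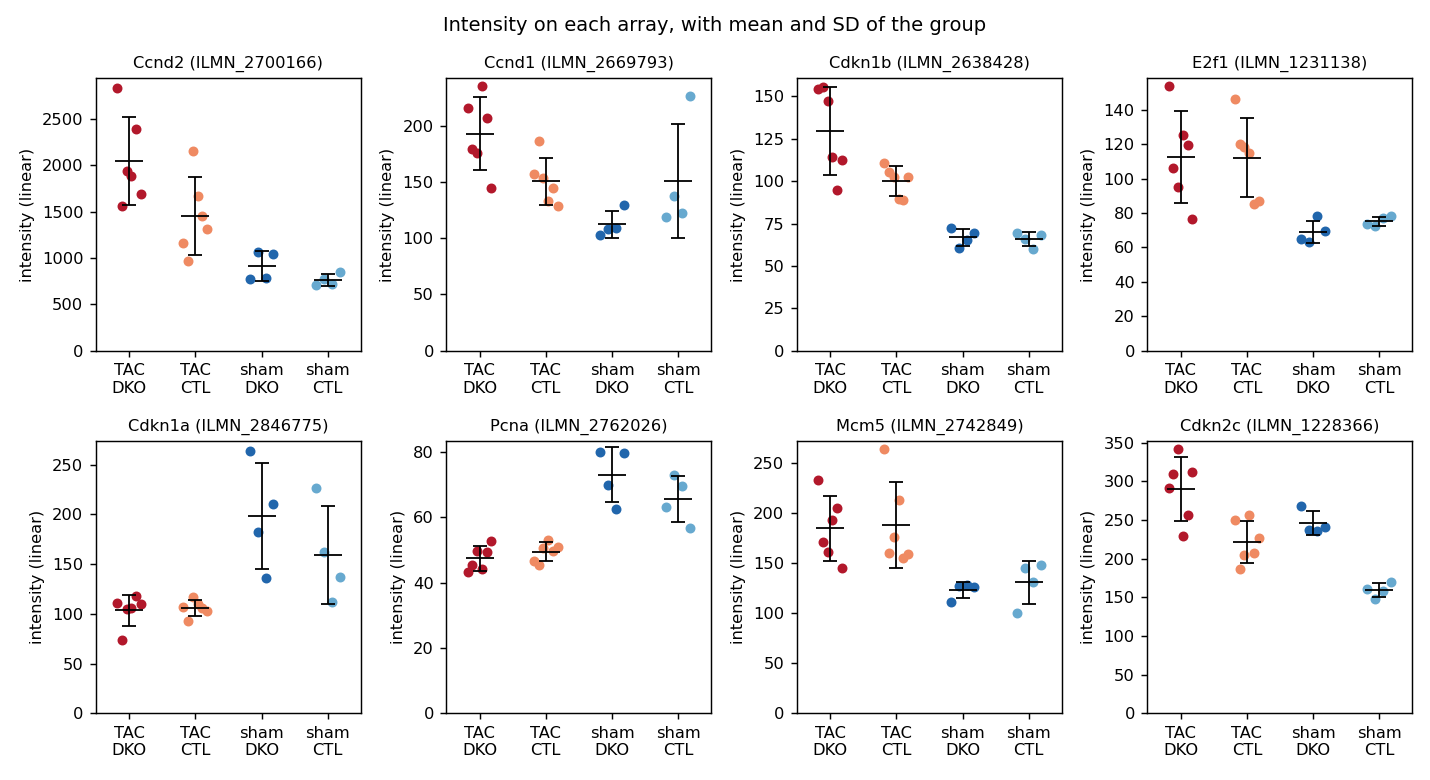
Linear intensity on each array (points, 1 per mouse) for 8 probes in TAC DKO, TAC CTL, sham DKO and sham CTL hearts, with the group mean (long bar) and SD (capped bars), and axes that start at 0. TAC hearts lie above sham hearts for *Ccnd2* and *Cdkn1b* and below them for *Pcna*, and *Cdkn2c* is the panel in which sham DKO hearts, at 236 to 269, lie apart from sham CTL hearts, at 148 to 170.

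The CIP/KIP inhibitors p21 and p27 moved in opposite directions. *Cdkn1b*, which encodes p27, a brake on cyclin E and CDK2, had a lowest, median and highest intensity of 94.6, 131 and 156 in TAC DKO hearts, against 72.4, 60.6, 65.2 and 69.3 in sham DKO hearts. In TAC CTL hearts these were 89.1, 102 and 111, against 69.5, 66.1, 60.2 and 68.2 in sham CTL hearts. Every TAC heart was above every sham heart of its genotype in *Cdkn1b*. The log2 fold change was 0.93 ± 0.11 (adjusted p = 1.0e-06) in DKO hearts and 0.60 ± 0.11 (adjusted p = 0.00036) in CTL hearts, and both were called, the second close to the fold of 1.5. The CTL value fell under that fold with arrays centred on their medians (0.41, adjusted p = 0.0062), and also without sham CTL replicate 3 (0.55), TAC CTL replicate 1 (0.57) or TAC CTL replicate 2 (0.58), and passed in each case. The other 2 *Cdkn1b* probes ranked in the lowest 16.3% of all probes and had values between 0.03 and 0.07.

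*Cdkn1a*, which encodes the p53-induced inhibitor p21, was lower after TAC in DKO hearts on all 3 of its probes. ILMN_2634083, its brightest, had 177, 233 and 293 (lowest, median and highest) in TAC DKO hearts, against 577, 417, 265 and 334 in sham DKO hearts. It had 142, 227 and 269 in TAC CTL hearts, against 492, 338, 177 and 220 in sham CTL hearts. The groups overlapped in both genotypes, and the sham hearts spread over more than the TAC hearts, with an SD of 134 in sham DKO and of 141 in sham CTL hearts. The log2 fold change was -0.71 ± 0.24 (adjusted p = 0.027) in DKO hearts and -0.39 ± 0.24 (adjusted p = 0.27) in CTL hearts. The call in DKO hearts was lost without sham DKO replicate 1 (-0.51, adjusted p = 0.14), without sham DKO replicate 2 (-0.67, adjusted p = 0.073) or without TAC DKO replicate 2 (-0.63, adjusted p = 0.062), and with a trended robust prior (-0.71, adjusted p = 0.062). On ILMN_2846775, TAC DKO hearts had 73.4, 108 and 118, below the 264, 182, 136 and 211 of sham DKO hearts with no overlap. TAC CTL hearts had 92.7, 107 and 117 there, against 227, 162, 112 and 137 in sham CTL hearts, which overlapped. This probe fell by 0.91 ± 0.17 (adjusted p = 0.00019) in DKO hearts, where it was called, and by 0.54 ± 0.17 (adjusted p = 0.020) in CTL hearts. The CTL value did not pass without sham CTL replicate 1 (-0.36, adjusted p = 0.13) or replicate 2 (-0.52, adjusted p = 0.055), and was called without sham CTL replicate 3 (-0.69) or replicate 4 (-0.60). With arrays centred on their medians the 2 probes fell further in DKO hearts, by 1.18 on ILMN_2634083 and by 1.29 on ILMN_2846775, and ILMN_2846775 was called in CTL hearts (-0.91, adjusted p = 0.00020). It was called there also on the values as deposited (-0.61, adjusted p = 0.0029).

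Of the INK4 inhibitors, which block CDK4 and CDK6, *Cdkn2c*, the gene of p18, rose in CTL hearts on its brightest probe, ILMN_1228366, and on no other. In TAC DKO hearts it had 229, 300 and 342 (lowest, median and highest), against 269, 237, 236 and 242 in sham DKO hearts, with overlap and a log2 fold change of 0.23 ± 0.10 (adjusted p = 0.089). In TAC CTL hearts it had 187, 217 and 256, against 161, 148, 159 and 170 in sham CTL hearts, without overlap and with a log2 fold change of 0.47 ± 0.10 (adjusted p = 0.00094), which was 0.04 (adjusted p = 0.81) with arrays centred on their medians. *Cdkn2a*, whose locus encodes p16 and, from another reading frame, ARF, had 0.12 (adjusted p = 0.17) in DKO hearts and rose by 0.23 (adjusted p = 0.012) in CTL hearts on its brightest probe, near the median probe. *Cdkn2b* and *Cdkn2d*, the genes of p15 and p19, did not pass in either genotype.

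Among S-phase genes the members split. *E2f1*, a transcription factor released by phosphorylation of the retinoblastoma protein, had 76.6, 113 and 154 (lowest, median and highest) in TAC DKO hearts, against 65.2, 63.4, 78.0 and 69.5 in sham DKO hearts. It had 85.5, 117 and 147 in TAC CTL hearts, against 73.8, 72.5, 77.0 and 78.1 in sham CTL hearts. The CTL groups did not overlap, and TAC DKO replicate 6 was the 1 TAC heart inside the sham range of its genotype. The log2 fold change was 0.68 ± 0.15 (adjusted p = 0.0012), called, in DKO hearts and 0.55 ± 0.15 (adjusted p = 0.0091), passed but under the fold of 1.5, in CTL hearts. With arrays centred on their medians *E2f1* had 0.47 (adjusted p = 0.013) in DKO hearts, under the fold of 1.5, and 0.30 (adjusted p = 0.12) in CTL hearts. Without TAC DKO replicate 1 the DKO value was 0.58, and without TAC CTL replicate 5 or 6 the CTL value was 0.62, which changed each call. *Pcna*, the sliding clamp of DNA polymerases, went the other way, with 43.1, 47.4 and 52.8 in TAC DKO hearts, against 79.9, 69.7, 62.6 and 79.6 in sham DKO hearts. It had 45.3, 50.2 and 53.1 in TAC CTL hearts, against 63.0, 72.8, 69.4 and 56.7 in sham CTL hearts. The groups did not overlap, and *Pcna* fell by 0.62 ± 0.08 (adjusted p = 3.4e-06), called, in DKO hearts and by 0.40 ± 0.08 (adjusted p = 0.00071) in CTL hearts. On the values as deposited, *Pcna* had -0.40 (adjusted p = 0.00040) in DKO hearts, which passed but was not called, and -0.15 (adjusted p = 0.13) in CTL hearts. The call in DKO hearts was also lost, with the probe still passing, when 32 was added before the logarithm (-0.40) and without sham DKO replicate 1 or 4 (-0.57 each). *Pcna* had a single probe, and its TAC values lay around or below the median probe. *Rrm2*, the small subunit of ribonucleotide reductase, did not pass on any of its 3 probes in either genotype.

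The MCM genes encode the 6 subunits of the replicative helicase, and they did not move as a block. Of their 12 probes, 4 rose and 1 fell in DKO hearts, and 3 rose and 1 fell in CTL hearts, and none was called. *Mcm5* had 145, 182 and 233 (lowest, median and highest) in TAC DKO hearts, against 111, 127, 128 and 126 in sham DKO hearts, and rose by 0.57 ± 0.14 (adjusted p = 0.0036). It had 155, 168 and 264 in TAC CTL hearts, against 101, 145, 131 and 148 in sham CTL hearts, and rose by 0.51 ± 0.14 (adjusted p = 0.011). TAC and sham hearts did not overlap in either genotype. *Mcm4* had 511, 531 and 589 in TAC DKO hearts, against 391, 398, 438 and 418 in sham DKO hearts, without overlap, and rose by 0.40 ± 0.09 (adjusted p = 0.00144). In TAC CTL hearts it had 436, 496 and 631, against 377, 416, 442 and 371 in sham CTL hearts, with overlap, and rose by 0.36 ± 0.09 (adjusted p = 0.0049). *Mcm2* had 97.4, 115 and 150 in TAC DKO hearts, against 79.3, 90.2, 78.8 and 91.4 in sham DKO hearts. It had 90.6, 101 and 171 in TAC CTL hearts, against 74.6, 94.8, 94.4 and 87.2 in sham CTL hearts. *Mcm2* rose in DKO hearts (0.45 ± 0.15, adjusted p = 0.025), without overlap, and overlapped in CTL hearts (0.38 ± 0.15, adjusted p = 0.069).

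The 4 probes of *Mcm6* disagreed. ILMN_1233857 rose by 0.54 in DKO hearts and by 0.46 in CTL hearts (adjusted p = 0.00022 and 0.0014), whereas the brightest, ILMN_1217331, had 0.06 ± 0.17 in DKO hearts and -0.31 ± 0.17 in CTL hearts and did not pass. *Mcm7* (ILMN_1213616) had 47.4, 57.0 and 71.6 (lowest, median and highest) in TAC DKO hearts, against 74.6, 75.0, 80.8 and 80.7 in sham DKO hearts. It had 49.3, 63.1 and 72.2 in TAC CTL hearts, against 80.1, 78.2, 78.2 and 75.7 in sham CTL hearts. Neither pair of groups overlapped, and *Mcm7* fell by 0.42 ± 0.10 (adjusted p = 0.0029) in DKO hearts and by 0.34 ± 0.10 (adjusted p = 0.017) in CTL hearts. Its other probe, ILMN_2673889, did not pass. *Mcm3* did not pass. Within the TAC CTL group, replicates 1 and 4 had the highest 2 values of *Mcm2* (171 and 145), *Mcm4* (631 and 602) and *Mcm5* (264 and 213), so that the same 2 mice were highest for the 3 genes. The rises of the MCM genes depended on the scaling. With arrays centred on their medians, *Mcm4* had -0.075 (adjusted p = 0.57) in DKO hearts and -0.12 (adjusted p = 0.36) in CTL hearts, *Mcm5* had 0.19 (adjusted p = 0.35) and 0.11 (adjusted p = 0.62), and *Mcm2* in DKO hearts had 0.17 (adjusted p = 0.41). ILMN_1233857 of *Mcm6* passed in DKO hearts (0.30, adjusted p = 0.044) and not in CTL hearts (0.17, adjusted p = 0.28), whereas *Mcm7* fell by 0.56 and by 0.50. Without sham CTL replicate 1, *Mcm5* had 0.38 (adjusted p = 0.071) in CTL hearts, and *Mcm2* in DKO hearts did not pass without sham DKO replicate 1 or 3 or TAC DKO replicate 5 (adjusted p = 0.072, 0.075 and 0.056).

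**Figure D3:**
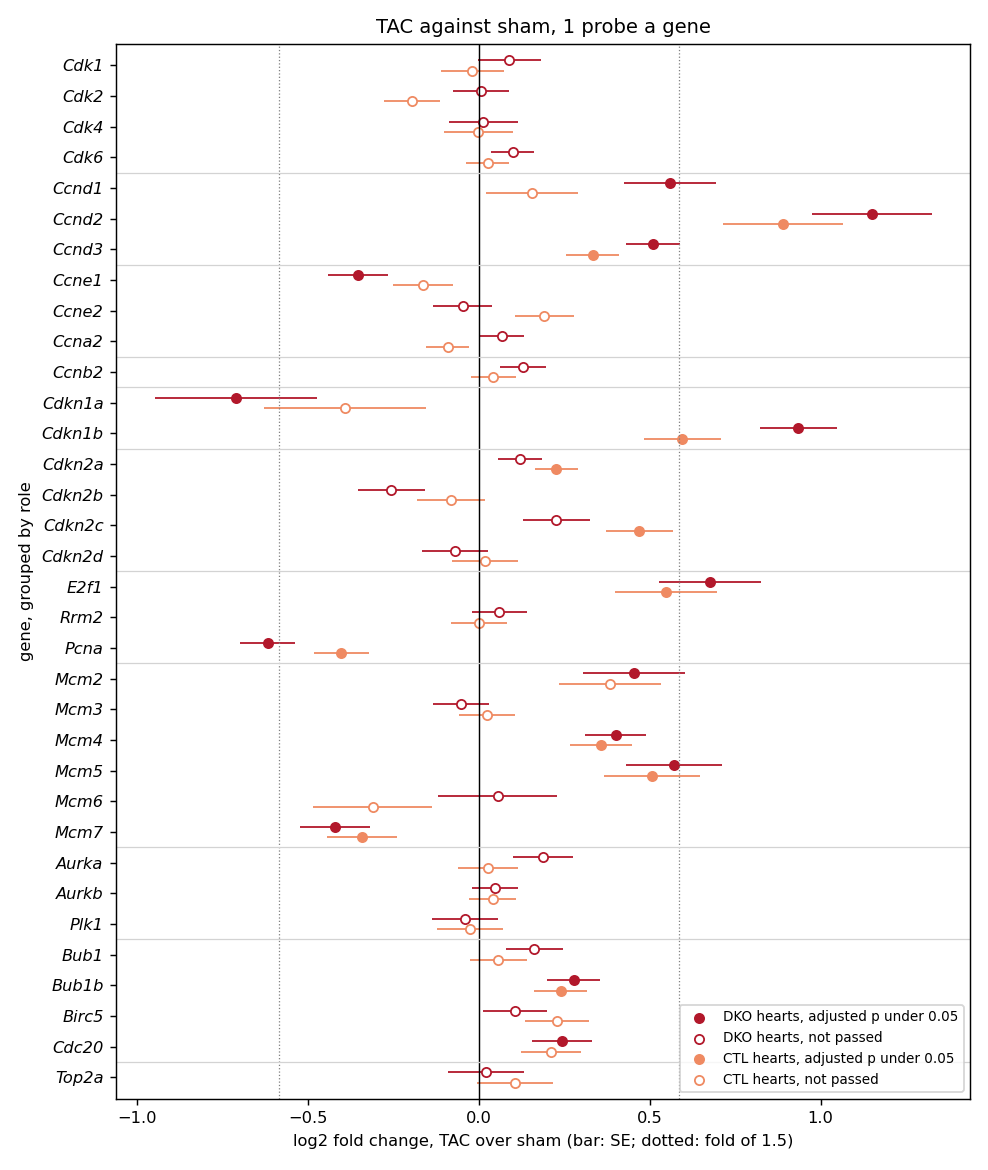
Log2 fold change of TAC over sham for the probe of each of 34 genes in DKO hearts (dark red) and CTL hearts (orange), with SE as bars, filled points for an adjusted p under 0.05, and dotted lines at a fold of 1.5. *Ccnd2* (1.15 and 0.89) and *Cdkn1b* (0.93 and 0.60) lie farthest to the right, and *Cdkn1a* (-0.71 and -0.39) and *Pcna* (-0.62 and -0.40) farthest to the left. The mitotic genes lie between the dotted lines, with *Bub1b* (0.28 and 0.24) filled in both genotypes.

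Genes of the later cycle changed little in intensity. *Ccne1*, the cyclin E1 gene, fell by 0.35 (adjusted p = 0.0036) in DKO hearts with a mean below the median probe, and no E- or A-type cyclin passed in CTL hearts. *Ccnb2*, a mitotic cyclin gene, had 43.4, 49.3 and 53.5 (lowest, median and highest) in TAC DKO hearts, against 49.9, 46.7, 41.0 and 41.7 in sham DKO hearts. It had 42.2, 45.7 and 47.6 in TAC CTL hearts, against 47.6, 43.8, 42.9 and 42.8 in sham CTL hearts. These values overlapped throughout. *Top2a*, a topoisomerase made by dividing cells, had 51.0, 64.0 and 74.3 in TAC DKO hearts, against 65.4, 61.9, 58.7 and 59.8 in sham DKO hearts. It had 56.2, 62.0 and 76.6 in TAC CTL hearts, against 54.9, 70.3, 64.8 and 51.1 in sham CTL hearts. The confidence interval of its log2 fold change, -0.21 to 0.25 in DKO hearts and -0.13 to 0.34 in CTL hearts, includes 0. The intensities of *Top2a* lay close to that of the median probe, so that these intervals do not bound a change in its RNA. *Aurka*, *Aurkb* and *Plk1*, the mitotic kinase genes, did not pass in either genotype.

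Of the 11 probes of the spindle checkpoint and chromosome genes, 3 rose and 1 fell in DKO hearts, and 1 rose and 2 fell in CTL hearts, all by less than the fold of 1.5. *Bub1b*, a checkpoint kinase gene, rose by 0.28 in DKO hearts (adjusted p = 0.0091) and by 0.24 in CTL hearts (adjusted p = 0.0285) on ILMN_2774007, whereas ILMN_2985969 had -0.18 (adjusted p = 0.117) in DKO hearts and fell by 0.26 (adjusted p = 0.0275) in CTL hearts. *Cdc20*, which activates the anaphase-promoting complex, rose by 0.24 in DKO hearts (adjusted p = 0.040) and had 0.21 in CTL hearts (adjusted p = 0.092), while its dimmest probe fell by 0.24 and by 0.23. *Birc5*, the survivin gene, passed on 1 of 3 probes in DKO hearts, by 0.23 (adjusted p = 0.011), and on none in CTL hearts. *Bub1* did not pass. The single values of these genes were not examined under another scaling.

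Between the genotypes, 1 member was called, on 1 of its probes. In sham hearts 1 of 72 probes was called higher in DKO and 0 lower, against 0.0883% and 0.0133% of all probes, and in TAC hearts 0 were called, against 0.144% of all probes in either direction. The arrays of the genotypes did not overlap for 3 member probes higher and 1 lower in sham DKO hearts, against 1.81% and 2.08% of all probes. With 1 probe a gene, these were 1 higher and 1 lower of 34 members, and 411 and 526 of all 19057 genes. At an unadjusted p under 0.05 by limma, 6 member probes stood in sham hearts and 5 in TAC hearts, against 5.55% and 8.99% of all probes. The called gene was *Cdkn2c* on ILMN_1228366, with 269, 237, 236 and 242 in the sham DKO hearts, against 161, 148, 159 and 170 in the sham CTL hearts. The groups lay apart, and the log2 fold change of DKO over CTL was 0.63 ± 0.11 (adjusted p = 0.0088). The call did not hold without sham DKO replicate 1 (0.58, adjusted p = 0.051) or without sham CTL replicate 2 (0.59, adjusted p = 0.053). In TAC hearts the lowest, median and highest of this probe were 229, 300 and 342 in DKO, against 187, 217 and 256 in CTL, which overlapped. The log2 fold change was 0.38 ± 0.09 (adjusted p = 0.061). It passed with array weights (0.40, adjusted p = 0.033) and with only probes above the median probe (0.38, adjusted p = 0.049). It also passed without TAC CTL replicate 1 (adjusted p = 0.041) or 4 (adjusted p = 0.035). The same held without TAC DKO replicate 4 (0.45, adjusted p = 0.0093) or 5 (adjusted p = 0.039). In each of these the probe stayed under the fold of 1.5. Its interaction of genotype and operation was -0.24 ± 0.14 (adjusted p = 0.94). The other 2 *Cdkn2c* probes, near the median probe, had 0.24 (adjusted p = 0.86) and 0.06 (adjusted p = 0.99) in sham hearts, and -0.08 (adjusted p = 0.82) and 0.00 (adjusted p = 0.99) in TAC hearts.

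Other members had values between genotypes that did not survive the adjustment. In TAC hearts, *Ccnd2* had 1565, 1914 and 2828 in DKO, against 965, 1385 and 2157 in CTL, with overlap and a log2 fold change of 0.51 ± 0.16 (adjusted p = 0.26). *Cdkn1b* had 94.6, 131 and 156 in TAC DKO hearts, against 89.1, 102 and 111 in TAC CTL hearts, with 0.36 ± 0.10 (adjusted p = 0.21). In sham hearts, *Ccnd1* was at -0.38 ± 0.15 on its brightest probe (adjusted p = 0.81) and *Mcm6* at -0.44 ± 0.19 (adjusted p = 0.86), with overlap of the groups. For the proliferation gene *Top2a* the 95% confidence interval of DKO over CTL was -0.21 to 0.29 in sham hearts and -0.25 to 0.16 in TAC hearts. For the interaction of genotype and operation, 0 members passed by limma, against 0.00221% of all probes called. An unadjusted p under 0.05 was found for 8 of the 72 probes, against 4.71% of all probes. With 1 probe a gene, this held for 2 of 34 members and for 1021 of all 19057 genes.

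**Figure D4:**
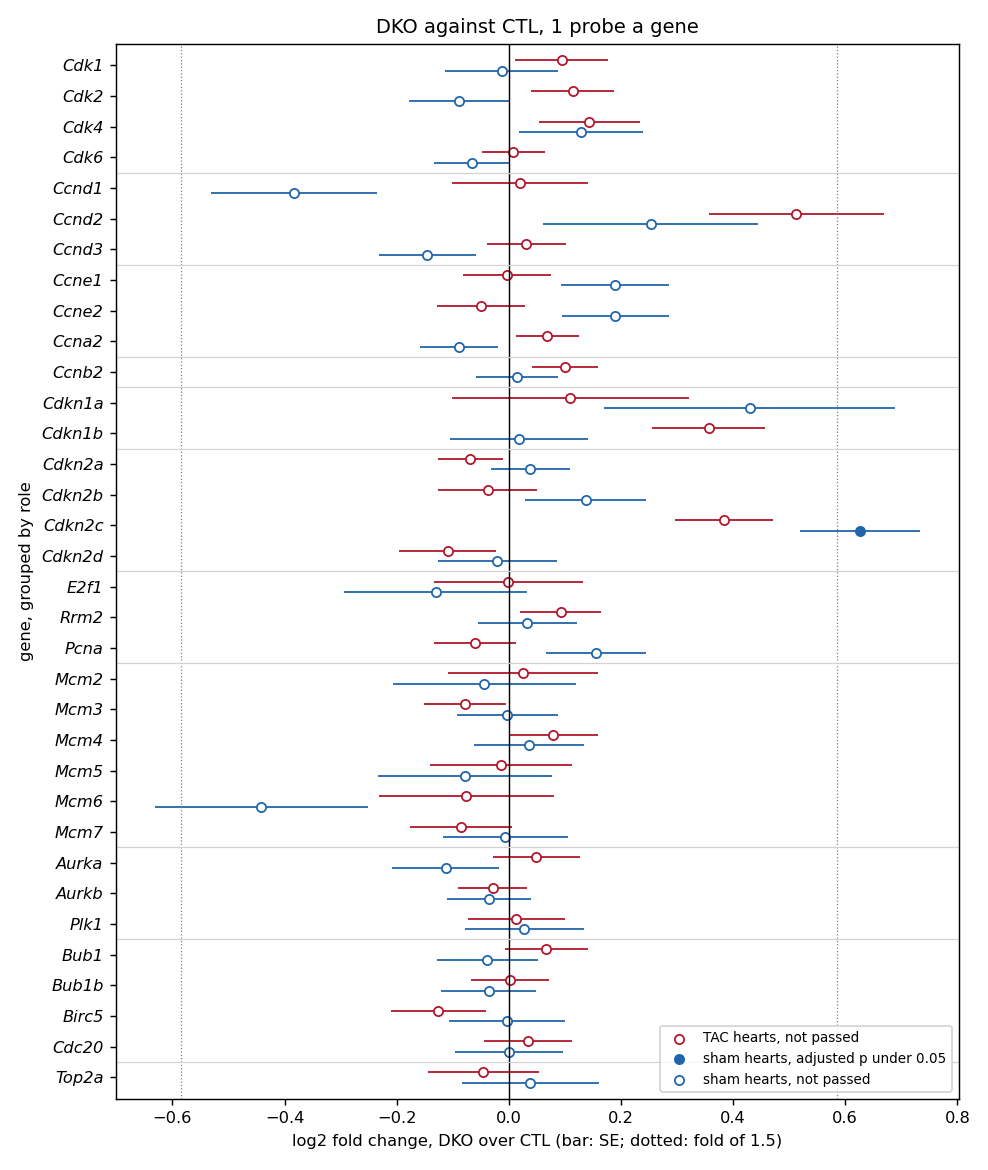
Log2 fold change of DKO over CTL for the probe of each of 34 genes in TAC hearts (dark red) and sham hearts (blue), with SE as bars, filled points for an adjusted p under 0.05, and dotted lines at a fold of 1.5. The point of *Cdkn2c* in sham hearts, at 0.63, is filled and past the dotted line, and the other points are open.

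Further genes of the cycle were counted in 5 lists that hold none of the members, with 1 probe a gene. They were read on the joint quantile normalization alone, so that their dependence on the scaling was not examined. Over all 19057 genes taken in the same way, 21.3% rose and 13.9% fell after TAC in DKO hearts, and 16.4% rose and 11.6% fell in CTL hearts, with median log2 fold changes of 0.04 and 0.03. Of 38 DNA replication genes, 10 rose and 3 fell after TAC in DKO hearts, and 7 rose and 3 fell in CTL hearts, with median log2 fold changes of 0.11 and 0.10. Of 51 genes of mitosis and cytokinesis, 14 rose and 2 fell in DKO hearts, and 9 rose and 2 fell in CTL hearts (medians 0.07 and 0.07). Their summed intensity was 7460 to 7824 in TAC DKO hearts, against 6031 to 6555 in sham DKO hearts. In CTL hearts it was 7124 to 8250 after TAC, against 6008 to 6222 after sham. Sums of the DNA replication list did not overlap either, whereas those of the remaining lists did, and bright genes weigh most in a sum. Of 17 regulators around E2F, RB and the DREAM complex, 2 rose and 2 fell in DKO hearts, and 3 rose and 3 fell in CTL hearts. Of 27 other cyclin, kinase and brake genes, 3 rose and 6 fell in DKO hearts, and 0 rose and 4 fell in CTL hearts. Of 21 targets of p53, 7 rose and 5 fell in DKO hearts, and 7 rose and 4 fell in CTL hearts. No gene of the 5 lists passed between genotypes by limma. In sham hearts, 1 to 3 genes of each list had an unadjusted p under 0.05 by limma, against 6.91% of all genes. In TAC hearts 9 of 38 DNA replication genes and 0 of 51 mitosis genes did so, against 11.6% of all genes. For the E2F and RB regulators these were 2 of 17, for the other cyclins, kinases and brakes 5 of 27, and for p53 targets 2 of 21.

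In these lists, 3 genes were called higher and 6 lower after TAC in DKO hearts (3.99% and 5.17% of all genes), and 2 higher and 4 lower in CTL hearts (2.74% and 4.2%). All are named here. *Ccng2*, an atypical cyclin gene linked to arrest, fell by 0.999 ± 0.106 in DKO hearts and by 0.95 ± 0.11 in CTL hearts (adjusted p = 1.9e-07 and 5.9e-07). *Ccnh*, the cyclin subunit of the CDK-activating kinase, fell by 0.65 ± 0.08 in DKO hearts and by 0.76 ± 0.08 in CTL hearts (adjusted p = 1.9e-06 and 3.6e-07). *Cdkn1c*, which encodes the CIP/KIP inhibitor p57, rose by 0.97 ± 0.17 in DKO hearts (adjusted p = 0.00014), with means of 1784 in TAC DKO and 894 in sham DKO hearts. In CTL hearts *Cdkn1c* had 0.33 ± 0.17 (adjusted p = 0.19), with means of 1552 in TAC CTL and 1243 in sham CTL hearts. *Plk2*, a Polo-like kinase gene induced by p53, fell by 0.67 ± 0.15 in DKO hearts and by 0.91 ± 0.15 in CTL hearts (adjusted p = 0.0017 and 0.00010). *Rfc4*, a subunit of the clamp loader, fell by 0.67 ± 0.11 in DKO hearts and by 0.70 ± 0.11 in CTL hearts (adjusted p = 4.4e-05 and 3.6e-05). The fold of 1.5 was passed in DKO hearts alone by 4 genes that also passed the test in CTL hearts in the same direction. They were *Fzr1*, an activator of the anaphase-promoting complex (0.68, against 0.53 in CTL hearts), *Anln*, the gene of the cytokinesis protein anillin (0.62, against 0.50), *E2f5*, a repressive E2F (-0.61, against -0.46), and *Gmnn*, the gene of the replication licensing inhibitor geminin (-0.60, against -0.49), with adjusted p of at most 0.0035. *Lin54*, a DNA-binding subunit of the DREAM complex, was called in CTL hearts and passed in DKO hearts (0.51 in DKO and 0.60 in CTL hearts), as was *Gadd45a*, a stress gene induced by p53 (0.53, adjusted p = 0.022 in DKO hearts, and 0.69, adjusted p = 0.0040 in CTL hearts). The difference between the genotypes did not pass for any list gene.

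Some markers of cell types also passed the test for the operation, and their part in the results on TAC was not tested. The counts below stand beside 21.3% of all genes that rose and 13.9% that fell in DKO hearts, and 16.4% and 11.6% in CTL hearts. For fibroblasts, 7 of 14 markers rose and 3 fell in DKO hearts, and 8 rose and 2 fell in CTL hearts. The summed intensity of the 14 ranged from 9625 to 12480 in TAC DKO hearts, against 10018 to 12196 in sham DKO hearts, and from 9925 to 14649 in TAC CTL hearts, against 9677 to 12009 in sham CTL hearts. Smooth muscle and pericyte markers rose for 6 of 10 genes in DKO hearts and for 5 of 10 in CTL hearts, with none lower, and their sum was 14422 to 20218 in TAC DKO hearts, against 10408 to 12135 in sham DKO hearts. Of 14 endothelial markers, 2 rose and 1 fell in DKO hearts, and 0 rose and 6 fell in CTL hearts. Of 15 leukocyte markers, 5 rose and 4 fell in DKO hearts, and 5 rose and 2 fell in CTL hearts, with sums of 3740 to 5394 in TAC DKO and 3923 to 4553 in sham DKO hearts. Of 13 cardiomyocyte markers, 3 rose and 6 fell in DKO hearts, and 2 rose and 5 fell in CTL hearts, and their sum was 168822 to 197959 in TAC DKO hearts, against 207971 to 212368 in sham DKO hearts. Red blood cell markers rose for 3 of 5 genes in each genotype. Atrial markers had sums of 25790 to 36100 in TAC DKO hearts and 7755 to 18257 in sham DKO hearts. In CTL hearts the sums were 8994 to 32954 after TAC and 2996 to 8237 after sham. The mean of their log2 levels, relative to that of all arrays, was -0.44 to 0.23 in sham DKO hearts. In sham CTL hearts it was -0.83 to -0.70, without overlap. Log2 fold changes of DKO over CTL in sham hearts ranged from -0.11 to 2.86, and none of the 6 markers passed. Their part in the call of *Cdkn2c* there was not tested. By the same mean, atrial markers were highest in TAC DKO replicates 2 and 3. Without these 2 arrays, a choice made after the data were seen, 9 member probes were called for TAC in DKO hearts and 3 in CTL hearts, against 8 and 3 with them.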

How the data were processed

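Total RNA of left ventricular tissue was measured on Illumina mouse bead arrays, 1 array for each of 20 mice. The authors deposited normalized intensities on a linear scale, made with GenomeStudio 2010.3 per the submitters' processing notes. The deposited sorted values were equal within 0.2% on at least 97.5% of probes among sham arrays and 99.91% among TAC arrays, and on at most 0.413% between them, which shows 2 sets quantile normalized separately. How background was treated is not given in the sources used here. Intensities of all 20 arrays were quantile normalized together, log2 transformed and fitted by limma 3.58.1 in R 4.3.3 with 1 mean per group, 5 contrasts and Benjamini-Hochberg adjustment over all 45281 probes, with no filter on low signals. A call needed an adjusted p under 0.05 and a fold over 1.5. Confidence intervals are 95%. P-values measure the spread between arrays, whose number limits the precision.

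Probes were named through the platform annotation with current symbols, by which 34885 probes named 1 gene, 18 several and 10378 none. The probe of a gene was that with the highest mean. Members and lists were chosen with earlier results of these data known. Values per sample were planned for every member with a called probe and for *Cdkn1a*, *Ccnd1*, *Ccnd2*, *Cdk1*, *Mki67*, *Top2a*, *Pcna*, *Mcm2*, *Ccnb2* and *E2f1*, and names for up to 4 called genes of each other list per comparison. Those of *Ccnd3*, *Mcm4*, *Mcm5* and *Mcm7* were added after their values were seen, as were the promoter windows shown. Alternatives were the values as deposited, median centring, an added 32 before the logarithm, probes above the median probe, only the groups compared, a trended robust prior, array weights, a replicate block and leaving out each array. They gave the member counts and the values of selected member probes, and were not read for the other lists or the cell type markers. The pipeline was tested on simulated data.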

Additional observations from a re-analysis of the deposited data

Results flagged for a closer look

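In 76 combinations of a described probe and a group, the highest and lowest samples were set against the rest by Dixon's test, which by chance flags about 1 in 20 groups, and 4 stood apart. For *Ccnd1* (ILMN_2669793), sham CTL replicate 4 had an intensity of 226, and the next highest sham CTL heart had 137. For *Cdkn1a* (ILMN_2846775), TAC DKO replicate 2 had 73.4, and the next lowest TAC DKO heart had 105. For *Cdkn2c* (ILMN_1228366), sham DKO replicate 1 had 269, and the next highest sham DKO heart had 242. For *Mcm5* (ILMN_2742849), sham DKO replicate 1 had 111, and the next lowest sham DKO heart had 126.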

How the results depend on the processing

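Without the fold threshold, 25 member probes passed for TAC in DKO hearts and 17 in CTL hearts, against 8 and 3 called with it. In sham hearts the count between genotypes was 1 in the fit described and 0 with 32 added to the intensities before the logarithm, where *Cdkn2c* had 0.54 (adjusted p = 0.0230), under the fold of 1.5. Leaving out 1 array at a time, the counts ranged from 6 to 10 for TAC in DKO hearts, from 2 to 4 for TAC in CTL hearts and from 0 to 1 for genotype in sham hearts (0 without sham DKO replicate 1 or sham CTL replicate 2), and were 0 throughout for genotype in TAC hearts and for the interaction. The direction turned under 1 alternative run, median centring, for *Ccnd3* in CTL hearts (-0.16) and for *Mcm4* in DKO hearts (-0.075) and CTL hearts (-0.12), and none of these passed there. On the values as deposited, where the median of all probes shifted by 0.29 in DKO hearts and 0.28 in CTL hearts, the calls split into 5 up and 2 down in DKO hearts and into 3 up and 1 down in CTL hearts. With median centring these were 2 and 5, and 0 and 4, and the cause was not tested. Replicate numbers were not taken to pair the samples, since correlations of the deviations of same-numbered arrays of different groups ranged from -0.239 to 0.48 and exceeded 0.1 in 8 of 26 pairs (30.8%). Other pairs did so in 18 of 122 (14.8%), and 10 of 20 arrays correlated best with an array of their own number, a hint from the data and not from the design. With the replicate block, 9 probes were called for TAC in DKO hearts, 4 in CTL hearts and 1 between genotypes in sham hearts. On the values as deposited, *Ccnd3*, *Mcm4* and *Mcm7* in CTL hearts no longer passed (adjusted p = 0.094, 0.061 and 0.059). There the calls of ILMN_2700168 of *Ccnd2* ended in DKO hearts (0.58) and CTL hearts (0.54). With 32 added, those of *E2f1* in DKO hearts (0.50) and *Cdkn1b* in CTL hearts (0.43) ended, and all 4 values passed. In DKO hearts, 3 probes close to the fold of 1.5 were called with 1 array left out: *Mcm5* without sham DKO replicate 2 or 3 or TAC DKO replicate 2, 3 or 6 (0.59 to 0.64), *Ccnd1* on ILMN_1221503 without sham DKO replicate 4 or TAC DKO replicate 2 or 3 (0.62 to 0.63), and *Mcm6* on ILMN_1233857 without sham DKO replicate 3 (0.65). Signals near the array's floor limit what can be said of the dimmest probes.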
